A study of Mus musculus with 12 samples.

Results

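The complement genes C3, C4b, C2, Cfb, C1ra, C1s1, Serping1 and Cd55 were followed in STHdhQ7 and STHdhQ111 cells with and without IFNγ/LPS treatment. They are the 8 rows of the deposited table that carry these gene names, out of 29428 genes in all. The rule that picks them out is by name, and the names were chosen with earlier results of these data known. All 8 were among the 16127 genes tested, those with 0.5 TPM or more (the deposited transcript level, scaled for length and library total) in 3 or more libraries, although C2 met this only through treated STHdhQ111 cells and Cd55 had 3 libraries at this level only in the STHdhQ111 groups.

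STHdhQ7 and STHdhQ111 are immortalized mouse striatal lines. The labels give STHdhQ7/Q7 the genotype normal, and STHdhQ111/Q111 is the Huntington's disease line, with an expanded huntingtin gene. Both were grown at 33 °C and used within 20 passages. The 4 groups were nontreated STHdhQ7 cells (Q7-C), nontreated STHdhQ111 cells (Q111-C), and both lines after 24 h with 100 ng/mL murine interferon-gamma (IFNγ) and 5 µg/mL lipopolysaccharide (LPS) (Q7-T and Q111-T), with 3 libraries each. Each genotype is represented by 1 line, so the huntingtin repeat and any other difference between these lines cannot be told apart. The treatment always combined both agents, and their separate effects cannot be told apart either. The paper calls the libraries of a group biological replicates without saying how the cultures were separated, so the p-values measure the spread between these libraries.

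Complement is a cascade of serum and cell-surface proteins that tags targets for removal. In the classical pathway the proteases C1r and C1s act in the C1 complex, where C1s cleaves C4 and C2 to build the enzyme that splits C3. In the alternative pathway C3b binds factor B, the product of Cfb, and amplifies its own formation. C1 inhibitor, encoded by Serping1, inactivates C1r and C1s, and CD55 speeds the decay of the C3-cleaving enzymes on the cell's own membrane. The liver makes most circulating complement, but many other cells transcribe these genes after interferon or LPS, and in brain C1q and C3 are known for their part in the removal of synapses.

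The libraries held 57505990 to 96417834 estimated counts each. Of the 6 neuronal markers in the table, Tubb3, Map2 and Stmn2 averaged at least 1 TPM in every group, while Snap25, Syt1 and Dcx did not exceed 0.025 TPM in any library. The 6 summed to 94.3 to 168 TPM in STHdhQ7 and 9.85 to 34.9 TPM in STHdhQ111 libraries, most of it Stmn2 and Tubb3 in STHdhQ7 cells. The 5 medium spiny neuron markers in the table summed to 0.354 to 0.906 TPM in STHdhQ7 and 2.37 to 6.92 TPM in STHdhQ111 libraries. Of 8 mesenchymal markers, 7 averaged at least 1 TPM in every group, and the 8 summed to 4351 to 5150 TPM in Q7-C, 3342 to 3883 in Q7-T, 4312 to 4531 in Q111-C and 1741 to 2075 in Q111-T. The similar sums without treatment hide opposite line differences. Acta2 was at 1605 to 1792 TPM in Q7-C and 24.6 to 56.0 TPM in Q111-C. Col1a1 went the other way, at 245 to 300 and 779 to 806 TPM, as did Col1a2, Col3a1, Fn1 and Pdgfrb. A panel of 8 astrocyte markers summed to at most 42.5 TPM in STHdhQ7 and to 73.9 to 113 TPM in STHdhQ111 libraries, most of it Gja1 in every library. Sox9 and Slc1a3 were also higher in STHdhQ111 cells, while Gfap, Aqp4, Slc1a2 and S100b did not exceed 0.47 TPM in any library. Without treatment Aldh1l1 went the other way, at 0.191 to 0.469 TPM in Q7-C and at most 0.115 TPM in Q111-C. Of 5 microglia and macrophage markers in the table, only Cd68 averaged at least 1 TPM, at 5.80 to 8.24 TPM in Q7-C, 8.69 to 15.1 in Q7-T, 14.2 to 16.5 in Q111-C and at least 40.3 in Q111-T, and Ptprc and Adgre1 were at or below 0.046 TPM in every library. A panel of 5 hepatocyte transcripts, led by Alb, summed to 30.3 TPM in Q7-C replicate 3 and 49.0 TPM in Q111-T replicate 2, against at most 4.09 TPM in the other 10 libraries. Genes with transcripts of at least 5000 bases lay lower in Q7-C replicate 1, Q7-T replicate 2 and Q111-T replicate 2 than in the other 2 libraries of their groups, with median log2 differences of -0.84, -1.08 and -0.52. The part of these features in the results below was not tested, and each call was recomputed without these libraries.

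The members lie on 4 chromosomes of GRCm38. C4b, Cfb and C2 are neighbours on the minus strand of chromosome 17, at chr17:34728380-34743882, chr17:34856374-34862518 and chr17:34862604-34898265, and C3 lies on the same strand at chr17:57203970-57228136. C1ra (chr6:124512405-124523443, plus strand) and C1s1 (chr6:124530345-124542359, minus strand) lie side by side on chromosome 6. Serping1 is at chr2:84765387-84775444 and Cd55 at chr1:130439027-130462744, both on the minus strand. The RefSeq promoter table for GRCm38.p6 held C3, C1ra, C1s1 and Cd55, that is 4 of the 8 members. The 250 bases before each start are shown because these genes changed with treatment, with line, or with both, and a reader may look there for sites of the factors that interferon and LPS are known to act through. Each is written 5′ to 3′ on the gene's own strand, and capitals mark matches to the motifs searched.
C3, chr17:57228137-57228386, minus strand: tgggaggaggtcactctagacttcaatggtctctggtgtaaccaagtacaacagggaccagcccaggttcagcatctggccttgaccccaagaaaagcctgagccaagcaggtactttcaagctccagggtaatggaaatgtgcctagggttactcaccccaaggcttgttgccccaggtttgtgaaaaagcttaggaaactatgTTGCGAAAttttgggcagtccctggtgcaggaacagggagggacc
C1ra, chr6:124512371-124512620, plus strand: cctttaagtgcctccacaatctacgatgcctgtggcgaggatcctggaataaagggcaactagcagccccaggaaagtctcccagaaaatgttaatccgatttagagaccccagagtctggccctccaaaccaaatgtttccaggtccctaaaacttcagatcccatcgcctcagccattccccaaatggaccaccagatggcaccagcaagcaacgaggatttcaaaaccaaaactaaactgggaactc
C1s1, chr6:124542360-124542609, minus strand: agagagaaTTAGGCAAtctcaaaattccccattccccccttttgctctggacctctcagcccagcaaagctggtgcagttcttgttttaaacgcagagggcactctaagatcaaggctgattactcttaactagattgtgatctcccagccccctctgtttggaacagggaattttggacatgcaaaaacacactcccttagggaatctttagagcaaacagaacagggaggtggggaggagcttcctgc
Cd55, chr1:130462745-130462994, minus strand: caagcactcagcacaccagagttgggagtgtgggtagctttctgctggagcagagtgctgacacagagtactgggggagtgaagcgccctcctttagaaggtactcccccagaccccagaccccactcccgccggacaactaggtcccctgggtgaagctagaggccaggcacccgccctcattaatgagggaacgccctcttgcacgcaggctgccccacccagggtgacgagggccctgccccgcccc

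These letters were searched on both strands: GAAANNGAAA (the interferon-stimulated response element, ISRE), TTGCNNAA (C/EBP) and the kappaB consensus. The C3 window held 1 C/EBP match, TTGCGAAA, from 45 to 38 bases before the start, and the C1s1 window held 1 on the opposite strand, TTAGGCAA, from 242 to 235 bases before it. No window shown held the letters of the ISRE or kappaB motifs. Of 32851 promoter windows of this length in the table, 9.56% held a C/EBP match, 2.98% ISRE and 7.25% kappaB. RefSeq lists a further start of C1s1 in which no match was found, and the C1ra start in RefSeq lies within the gene as the deposited table places it.

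Treatment raised most of the members in both lines. After treatment most of them were higher in STHdhQ111 than in STHdhQ7 cells, without treatment 3 were, and Serping1 was lower in STHdhQ111 cells in both states. A gene was counted as changed when its Benjamini-Hochberg adjusted p in edgeR's quasi-likelihood test was under 0.05 and its change was at least 2-fold. In Q7-T vs. Q7-C, 5 of 8 members rose (C1ra, C1s1, C4b, C3 and Serping1), where 2.93% of all genes tested rose. In Q111-T vs. Q111-C, 7 of 8 rose, all but Cd55, where 8.28% of all genes rose. C2 was tested only because of its level in Q111-T, which favours a call against that group, and without it 6 of 7 rose there. In neither comparison did a member fall. Between the nontreated lines, C3, C1ra and Cd55 were higher in Q111-C (7.62% of all genes were) and Serping1 was lower (7.61% of all genes were). Between the treated lines, C3, C4b, C2, Cfb, C1s1 and Cd55 were higher in Q111-T (13.3% of all genes) and Serping1 was lower (11.2% of all genes). Without C2 and Cd55, each tested because of its level in STHdhQ111 cells, 2 of 6 were higher between the nontreated and 4 of 6 between the treated lines. Without both libraries with the highest hepatocyte sums, the members past the thresholds numbered 5 with treatment of STHdhQ7 cells, 7 with treatment of STHdhQ111 cells, 3 between the nontreated and 6 between the treated lines, Cd55 being the one lost between the treated lines (edgeR adjusted p = 0.0608). Without the 3 libraries low in long transcripts they numbered 5, 8, 3 and 7. In both fits the call lost between the nontreated lines was that of C1ra.

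The median log2 fold change of the 8 members was 3.28 in Q7-T vs. Q7-C and 3.72 in Q111-T vs. Q111-C, with genes that were not detected in nontreated cells entered at their lower bound. It was 0.15 in Q111-C vs. Q7-C and 1.91 in Q111-T vs. Q7-T. Over the 6 members other than C2 and Cd55 the medians were 3.57, 4.13, 0.15 and 1.53 in the same order. The median over all genes tested lay between -0.03 and 0.00 in these 4 comparisons. These comparisons share groups with each other, so their counts are not independent. In bulk RNA, more cells of a kind and more transcript per cell cannot be told apart.

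**Figure D1:**
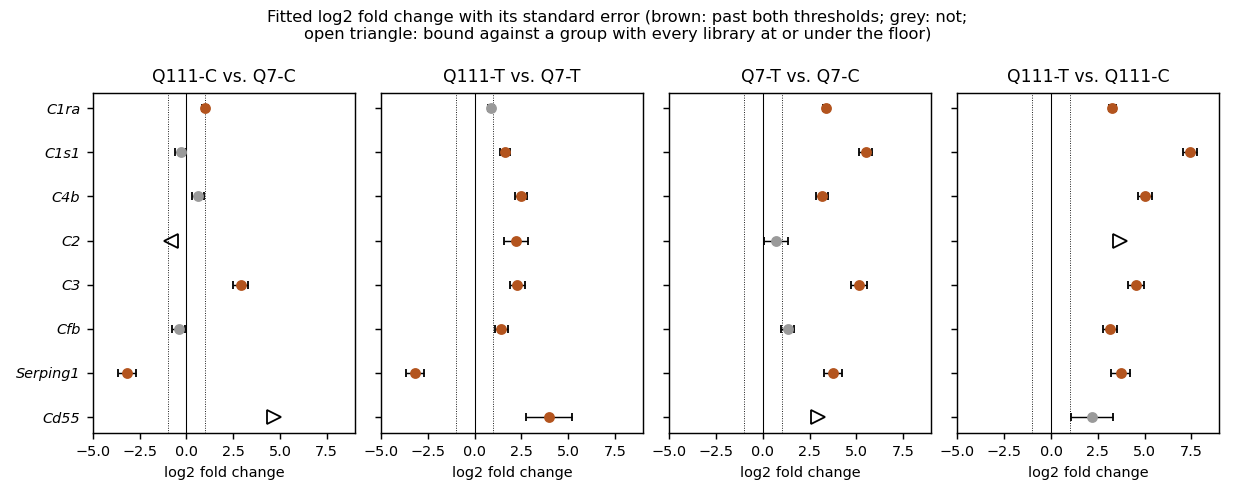
Fitted log2 fold change of each member in the 4 comparisons of 2 groups, with bars of 1 standard error. Brown points passed both thresholds, grey points did not, dotted lines stand at a 2-fold change, and open triangles are bounds against a group in which every library was at or under 12 estimated counts. Serping1 lies at -3.17 and -3.19 in the comparisons between lines and near 3.7 in both treatment comparisons.

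C1ra encodes C1r, the protease that activates C1s. Its level was 7.22, 11.6 and 10.2 TPM in Q7-C and 111, 49.9 and 117 TPM in Q7-T. In STHdhQ111 cells it was 21.1, 24.9 and 25.6 TPM without treatment and 222, 195 and 231 TPM with it. The 4 groups did not overlap, in the order Q7-C, Q111-C, Q7-T and Q111-T, and Q7-T replicate 2 was the low library of its group. Treatment raised C1ra by a log2 fold change of 3.39 (SE 0.169, edgeR adjusted p = 2.25e-07) in STHdhQ7 and 3.28 (SE 0.168, edgeR adjusted p = 2.53e-07) in STHdhQ111 cells. The line difference was smaller. It was 1.00 (SE 0.156, edgeR adjusted p = 0.000635) in nontreated cells, on the threshold, and 0.89 (SE 0.155, edgeR adjusted p = 0.00102) in treated cells, under it. The nontreated call was lost by size, with log2 fold changes of 0.96 to 1.00, without Q7-C replicate 1, Q7-C replicate 3 or Q111-C replicate 3, and the same held with the replicate block and with limma on quantile-normalized TPM. The treated difference passed in 5 of 26 alternatives, with 1.01 without Q7-T replicate 3 and 1.13 to 1.32 with limma at 3 pseudocounts and on quantile-normalized TPM (limma adjusted p = 0.000869 to 0.0057).

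C1s1 encodes C1s, the protease that cleaves C4 and C2. It had the largest response to treatment of the members that were detected in every group. Q7-C held 1.99, 5.88 and 3.96 TPM and Q7-T held 211, 72.8 and 197 TPM. Q111-C held 3.64, 3.17 and 4.57 TPM and Q111-T held 650, 515 and 689 TPM. The nontreated lines overlapped, and each treated group lay above all nontreated libraries, with Q111-T above Q7-T. The log2 fold change with treatment was 5.49 (SE 0.338, edgeR adjusted p = 1.03e-06) in STHdhQ7 cells and 7.43 (SE 0.370, edgeR adjusted p = 2.53e-07) in STHdhQ111 cells. Between lines it was -0.31 (95% interval -0.94 to 0.31, edgeR adjusted p = 0.498) without treatment and 1.63 (SE 0.285, edgeR adjusted p = 0.00104) with it.

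Because TPM is scaled for transcript length, both C1 proteases can be set against each other within a library. The ratio of C1s1 to C1ra was 0.275, 0.507 and 0.387 in Q7-C and 0.173, 0.127 and 0.178 in Q111-C. It was 1.90, 1.46 and 1.69 in Q7-T and 2.93, 2.64 and 2.99 in Q111-T. Nontreated cells of both lines thus held more C1ra than C1s1 transcript, and treated cells more C1s1 than C1ra. Without treatment the ratio was lower in every STHdhQ111 library than in every STHdhQ7 library, and with treatment it was higher. Each of these 2 line differences had a two-sided exact permutation p of 0.1, the smallest that 3 libraries against 3 can give.

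**Figure D2:**
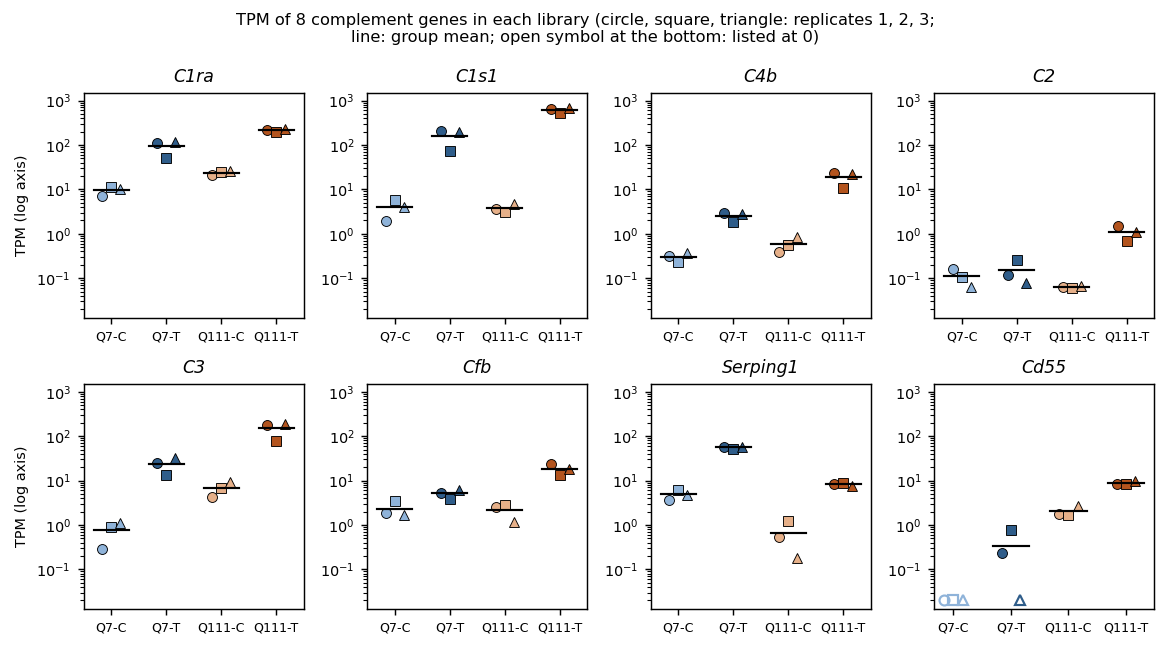
TPM of each member in each library on a log axis, by group, with replicates 1, 2 and 3 as circle, square and triangle and the group mean as a line. Open symbols at the bottom are libraries in which Cd55 was listed at 0. Q111-T is the highest group for all members except Serping1, whose highest group is Q7-T.

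C4b encodes C4, the first substrate of C1s. Q7-C held 0.320, 0.233 and 0.370 TPM and Q111-C 0.387, 0.560 and 0.854 TPM. After treatment it was 3.01, 1.81 and 2.78 TPM in Q7-T and 23.4, 10.7 and 21.8 TPM in Q111-T. The groups did not overlap, although the nontreated groups nearly met. C4b rose with treatment by 3.16 (SE 0.339, edgeR adjusted p = 0.00011) in STHdhQ7 and by 5.02 (SE 0.363, edgeR adjusted p = 2.53e-06) in STHdhQ111 cells on the log2 scale. Between lines the log2 difference was 0.61 (SE 0.323, edgeR adjusted p = 0.218) without treatment and 2.46 (SE 0.321, edgeR adjusted p = 0.000137) with it.

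The near-copy of C4b, C4a, went its own way. In STHdhQ111 cells C4a was the lower of both lines, at a log2 difference of -1.47 (SE 0.275, edgeR adjusted p = 0.00226) without treatment and -1.11 (SE 0.273, edgeR adjusted p = 0.0078) with it, and it did not pass the thresholds in either treatment comparison. Both line calls of C4a were lost with limma at each of the 3 pseudocounts (limma adjusted p = 0.0605 to 0.225). C4a made up 78.3%, 88.4% and 84.6% of the summed TPM of both genes in Q7-C and 56.9%, 56.7% and 52.2% in Q111-C. In Q7-T its share was 38.5%, 28.7% and 39.3%, and in Q111-T it was 4.0%, 5.85% and 4.05%. In the GENCODE M21 transcripts, 34.6% of the 50-base words of C4b also occur in C4a, so how the reads were divided between them is uncertain. With the counts of both genes added, the nontreated line difference turned to -0.89 (edgeR adjusted p = 0.0285), while the rise with treatment was 1.13 (edgeR adjusted p = 0.0263) in STHdhQ7 and 3.87 (edgeR adjusted p = 3.12e-06) in STHdhQ111 cells.

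C2 encodes the protease that joins C4b in the classical C3-cleaving enzyme. Averaged over all 12 libraries it was the lowest member. Its estimated counts were 26, 17 and 11 in Q7-C, 16, 40 and 16 in Q7-T, and 9, 10 and 11 in Q111-C, against 216, 90 and 119 in Q111-T. As multiples of 4 are over-represented among the low counts of this table, 1 read pair was taken as about 4 estimated counts, and a group with no library above 12 counts was treated as not detected. On that rule C2 was not detected in Q111-C, and it was at least 13.1-fold higher in Q111-T (edgeR adjusted p = 0.00205), a call lost by size with limma on log2(TPM + 1) (0.96). As C2 entered the test only through Q111-T, its comparisons with that group are not independent of the filter. In TPM, Q111-T held 1.52, 0.687 and 1.09, and no other library exceeded 0.261. The line difference in treated cells was 2.20 on the log2 scale (SE 0.648, edgeR adjusted p = 0.0199). That call was lost without Q7-T replicate 1, Q7-T replicate 3 or Q111-T replicate 1 (edgeR adjusted p = 0.0591 to 0.066) and when only the 2 groups were fitted (edgeR adjusted p = 0.051). It also fell under 2-fold with limma on log2(TPM + 1) and on quantile-normalized TPM (0.85 and 0.94), and the value was 3.22 without Q7-T replicate 2. In STHdhQ7 cells its treatment response was 0.70 on the log2 scale, with a 95% interval of -0.72 to 2.12 (edgeR adjusted p = 0.702), and it was -0.31 without Q7-T replicate 2, the library with 40 counts.

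C3 encodes the component on which all pathways meet. Q7-C held 0.282, 0.917 and 1.11 TPM and Q111-C 4.30, 6.64 and 9.35 TPM. After treatment the level was 25.2, 13.7 and 31.7 TPM in Q7-T and 181, 79.6 and 186 TPM in Q111-T. The 4 groups did not overlap. Nontreated STHdhQ111 cells thus already exceeded nontreated STHdhQ7 cells in C3, by 2.89 on the log2 scale (SE 0.413, edgeR adjusted p = 0.000354), and treated cells likewise, by 2.27 (SE 0.395, edgeR adjusted p = 0.000985). It rose with treatment by 5.14 (SE 0.454, edgeR adjusted p = 2.1e-05) in STHdhQ7 and by 4.53 (SE 0.437, edgeR adjusted p = 2.21e-05) in STHdhQ111 cells. The low libraries of the 3 groups with the widest spread, Q7-C replicate 1, Q7-T replicate 2 and Q111-T replicate 2, are those in which long transcripts lay lower. Without these 3 libraries the nontreated line difference was 2.56 (edgeR adjusted p = 9.44e-05) and the treated one 2.46 (edgeR adjusted p = 7.26e-05).

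Cfb encodes factor B, the protease of the alternative pathway. The nontreated groups overlapped, with 1.85, 3.50 and 1.69 TPM in Q7-C and 2.50, 2.84 and 1.15 TPM in Q111-C. Treatment brought Q7-T to 5.30, 3.90 and 6.20 TPM and Q111-T to 23.2, 13.7 and 18.2 TPM, each above both nontreated groups. The rise in STHdhQ111 cells was 3.17 on the log2 scale (SE 0.369, edgeR adjusted p = 0.0001). In STHdhQ7 cells the value was 1.32 (SE 0.347) and did not pass the test (edgeR adjusted p = 0.0517), although it did in 7 of 26 alternatives. These were DESeq2 (adjusted p = 0.004), limma on quantile-normalized TPM (limma adjusted p = 0.03), and edgeR on counts divided by 4, on genes with at least 1 TPM in 3 libraries, with the replicate block, and without Q7-C replicate 2 or Q111-C replicate 3 (edgeR adjusted p = 0.0209 to 0.0485). Q111-T exceeded Q7-T by 1.42 (SE 0.346, edgeR adjusted p = 0.00743).

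A readthrough gene, Gm20547 (chr17:34856412-34882042), covers Cfb and part of C2 on the same strand, and 73.0% of the 50-base words of Cfb and 38.7% of those of C2 occur in its transcripts. It was listed at 1.68 TPM in Q7-C replicate 3 and 1.76 TPM in Q111-C replicate 3, the libraries with the least Cfb of their groups, and at 0.158 TPM or less in the other 10. With the counts of Gm20547 added to Cfb, the rise in STHdhQ7 cells was 0.95 (edgeR adjusted p = 0.0314), under 2-fold, and that in STHdhQ111 cells was 2.72 (edgeR adjusted p = 9.92e-06). Gm20547 held 284 and 262 estimated counts in replicate 3 of Q7-C and Q111-C, where C2 held 11 each. Its counts were not added to C2, so the effect of this division of reads on the C2 values was not tested.

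Serping1 encodes C1 inhibitor, the serpin that inactivates C1r and C1s. It was the only member that was lower in STHdhQ111 than in STHdhQ7 cells in both states. Q7-C held 3.69, 6.10 and 4.79 TPM and Q111-C 0.548, 1.26 and 0.179 TPM. With treatment Q7-T held 57.7, 51.8 and 58.3 TPM and Q111-T 8.32, 8.77 and 7.44 TPM. The 4 groups did not overlap, and treated STHdhQ111 cells lay just above nontreated STHdhQ7 cells. The line difference was -3.17 (SE 0.497, edgeR adjusted p = 0.000681) without treatment and -3.19 (SE 0.480, edgeR adjusted p = 0.000371) with it. Treatment raised Serping1 by 3.76 (SE 0.492, edgeR adjusted p = 0.00056) in STHdhQ7 and by 3.73 (SE 0.507, edgeR adjusted p = 0.000311) in STHdhQ111 cells. Q111-C was the thinnest group, with 41, 103 and 16 estimated counts, and without its replicate 2 the nontreated line difference was -3.97 and the rise in STHdhQ111 cells 4.54. No 50-base word of Serping1 or C3 occurs in another gene's transcripts, so both are free of the uncertainty that touches C4b, Cfb, C2, C1ra and C1s1.

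Set against their inhibitor within each library, the summed C1ra and C1s1 TPM was 2.50, 2.87 and 2.96 times Serping1 in Q7-C and 5.58, 2.37 and 5.38 times in Q7-T. In Q111-C it was 45.1, 22.3 and 168 times and in Q111-T 105, 80.9 and 124 times. Every STHdhQ111 library exceeded every STHdhQ7 library, by a geometric mean of 20.0-fold without treatment and 24.5-fold with it (two-sided exact permutation p = 0.1 each). The ratio of 168, in Q111-C replicate 3, rests on 16 estimated counts of Serping1, and the nontreated value was 11.5-fold without that library and 31.5-fold without Q111-C replicate 2. The ratios of treated and nontreated libraries of the same line overlapped (two-sided exact permutation p = 0.4 in each line).

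**Figure D3:**
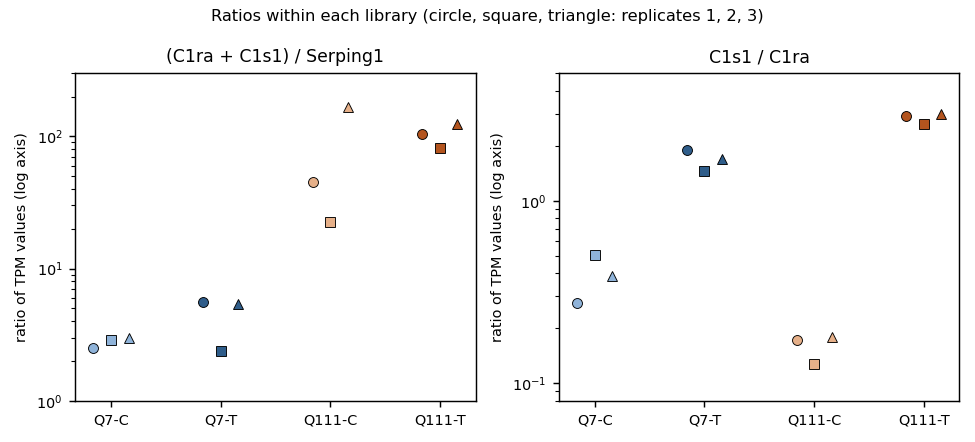
Ratios of TPM values within each library on log axes, with replicates 1, 2 and 3 as circle, square and triangle. On the left, C1ra plus C1s1 over Serping1 lies between 2.37 and 5.58 in STHdhQ7 libraries and between 22.3 and 168 in STHdhQ111 libraries. On the right, C1s1 over C1ra is below 1 in nontreated and above 1 in treated libraries.

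Cd55 encodes the membrane protein that limits C3-cleaving enzymes on the cell's own surface. It was listed at 0 in all 3 Q7-C libraries and at 0.236, 0.776 and 0 TPM in Q7-T. STHdhQ111 cells held 1.75, 1.69 and 2.71 TPM without and 8.40, 8.18 and 9.69 TPM with treatment, above every STHdhQ7 library. Cd55 met the filter through STHdhQ111 cells, so its comparisons between lines are not independent of the filter. Without treatment Cd55 was at least 25.8-fold higher in STHdhQ111 cells (edgeR adjusted p = 0.0054). In treated cells the line difference was 3.97 on the log2 scale (SE 1.22, edgeR adjusted p = 0.0287), but this call was lost without Q7-T replicate 1 or any one of the Q111-T libraries (edgeR adjusted p = 0.0585 to 0.0764), and when only the 2 groups were fitted (edgeR adjusted p = 0.0703). The value was 6.13 without Q7-T replicate 2 and 3.36 without Q7-T replicate 3. Treatment did not pass the test for Cd55 in either line. In STHdhQ111 cells the treated and nontreated libraries did not overlap, and the log2 fold change of 2.19 had a 95% interval of -0.32 to 4.70 (edgeR adjusted p = 0.232). It passed in 7 of 24 alternatives. These were the fit of the 2 groups alone (edgeR adjusted p = 0.000119), the fits without Q7-T replicate 3 (edgeR adjusted p = 0.0212) and without the 3 libraries low in long transcripts (edgeR adjusted p = 0.0493), and limma at all 3 pseudocounts and on quantile-normalized TPM (1.69 to 2.07, limma adjusted p = 0.000137 to 0.0383). In STHdhQ7 cells the mean was at least 7.72-fold higher with treatment, resting on 38 and 147 counts in replicates 1 and 2 and on none in replicate 3 (edgeR adjusted p = 0.0502). The bound was 1.80-fold without replicate 2. The test passed without replicate 3 (edgeR adjusted p = 0.00109) and among genes with at least 1 TPM in 3 libraries (edgeR adjusted p = 0.0471). Its near-copy Cd55b was above 0 in 1 of the 12 libraries.

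Whether the lines responded by different amounts was tested as the interaction of line and treatment. C1s1, C4b and Cfb passed both thresholds, with a larger rise in STHdhQ111 cells, where 3.52% of all genes tested passed in that direction. The difference of the log2 responses was 1.94 for C1s1 (SE 0.401, edgeR adjusted p = 0.0151), 1.85 for C4b (SE 0.447, edgeR adjusted p = 0.0338) and 1.85 for Cfb (SE 0.487, edgeR adjusted p = 0.0499). These calls were close to the threshold. That of C1s1 was lost without Q111-C replicate 1 or Q111-C replicate 2 (edgeR adjusted p = 0.0504 and 0.0569), and also with limma on log2(TPM + 0.5), log2(TPM + 0.1) and log2(TPM + 1) (limma adjusted p = 0.0702, 0.102 and 0.0523), where the difference was 2.03 to 2.05. That of C4b was lost with limma on log2(TPM + 0.1) (limma adjusted p = 0.0548) and in 8 of the 12 fits that each left out 1 library (edgeR adjusted p = 0.0546 to 0.0949), the exceptions being Q7-C replicate 2, Q7-T replicate 2, Q111-C replicate 3 and Q111-T replicate 2. That of Cfb was lost with limma on log2(TPM + 0.1) (limma adjusted p = 0.0764), with RLE size factors (edgeR adjusted p = 0.0522), with no filter on low values (edgeR adjusted p = 0.0711), with the replicate block (edgeR adjusted p = 0.056) and in 10 of 12 (edgeR adjusted p = 0.0632 to 0.132), the exceptions being Q7-C replicate 3 and Q7-T replicate 2. All 3 were lost without both libraries with the highest hepatocyte sums (edgeR adjusted p = 0.0571 to 0.0665), where their differences were 2.02 to 2.17.

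The other members did not pass in edgeR with all libraries. For C1ra it was -0.12, with a 95% interval of -0.59 to 0.36 (edgeR adjusted p = 0.823), so a difference as large as that of C1s1 lies outside its interval. For C3 it was -0.61 (95% interval -1.80 to 0.57, edgeR adjusted p = 0.584), and for Serping1 it was -0.03 (95% interval -1.61 to 1.56, edgeR adjusted p = 0.994). For C2 it was 3.27 (95% interval 1.23 to 5.31, edgeR adjusted p = 0.0666), and it passed in 6 of the 23 alternatives run. Among these were the fit without Q7-T replicate 2 (4.28, edgeR adjusted p = 0.00652), DESeq2 (3.26, adjusted p = 0.0117) and limma on log2(TPM + 0.5) (1.39, limma adjusted p = 0.0149). C2 entered the test only through Q111-T, so these passes are not independent of the filter. It was not detected in Q111-C, so its fitted difference and interval rest on counts of 12 or fewer there. Cd55 was at 0 in Q7-C, so its fitted difference is not a measured quantity.

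**Figure D4:**
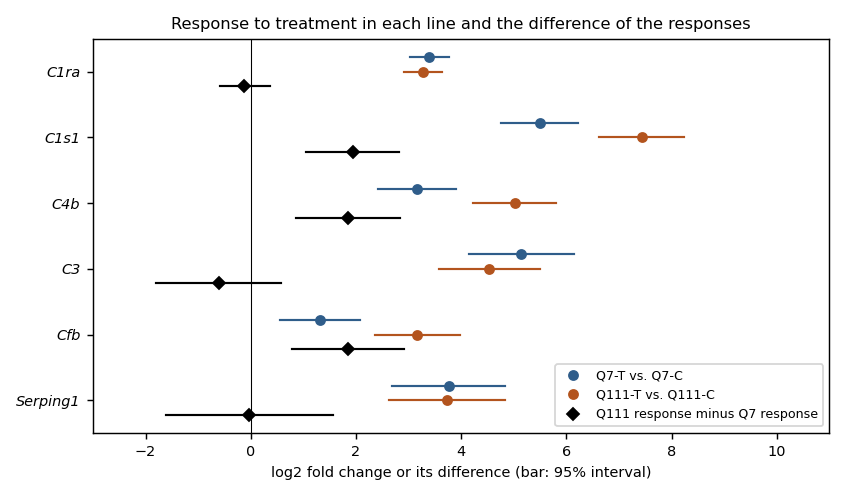
Log2 fold change with treatment in STHdhQ7 cells (blue circles) and STHdhQ111 cells (brown circles) and the difference of both responses (black diamonds), with 95% intervals, for the 6 members detected in every group. The intervals of the difference lie above 0 for C1s1, C4b and Cfb and span 0 for C1ra, C3 and Serping1.

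The near-copies of the C1 proteases rose with treatment as the members did. C1rb rose by 3.10 (SE 0.279, edgeR adjusted p = 2.49e-05) in STHdhQ7 and by 3.77 (SE 0.286, edgeR adjusted p = 3.53e-06) in STHdhQ111 cells on the log2 scale. C1s2 rose by 4.49 (SE 0.554, edgeR adjusted p = 0.000345) and by 7.07 (SE 0.613, edgeR adjusted p = 9.72e-06). C1rb shares 48.0% of the 50-base words of C1ra, and C1s2 shares 21.8% of those of C1s1. Each stayed the lesser gene of its pair, with C1rb at 9.81% to 17.6% of the summed TPM and C1s2 at 2.10% to 12.7%. With the counts of each pair added, the nontreated line difference of C1ra was 0.93 (edgeR adjusted p = 0.00119), under 2-fold, and the other calls of C1ra and C1s1 held.

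**Figure D5:**
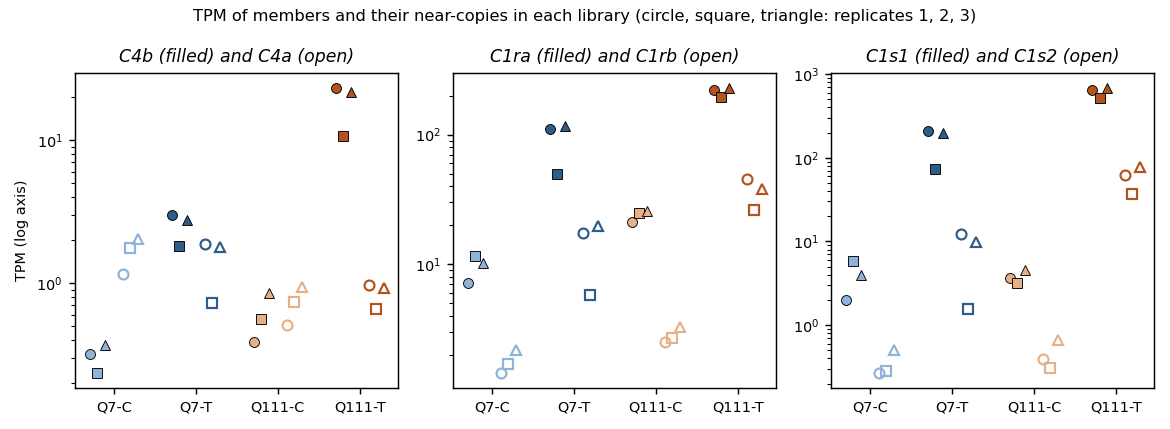
TPM of C4b, C1ra and C1s1 (filled symbols) and of their near-copies C4a, C1rb and C1s2 (open symbols) in each library on log axes. C4a exceeds C4b in all nontreated libraries and lies below it in all treated libraries, whereas C1rb and C1s2 lie below their partners in all 12 libraries.

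Beyond the 8 members, a list of 49 further complement genes held 46 in the table and 17 that were tested. Among these, 4 rose in Q7-T vs. Q7-C and 4 in Q111-T vs. Q111-C, and none fell, where 2.93% and 8.28% of all genes rose. The genes were C1rb, C1s2, Itgb2 and Cd93 each time, the last 2 encoding the common chain of complement receptors 3 and 4 and a membrane receptor. Of the other integrin chains listed as receptors, Itgam did not exceed 0.0762 TPM and Itgax 0.302 TPM in any library, and neither was tested. In Q111-C vs. Q7-C 4 were higher and 2 lower, where 7.62% and 7.61% of all genes were. In Q111-T vs. Q7-T 6 were higher and 3 lower, where 13.3% and 11.2% were. The median log2 fold change of the 17 lay between -0.07 and 0.36 in the 4 comparisons of 2 groups.

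Of the activation proteins, 5 of 13 in the table were tested besides the members. C1qa, C1qb and C1qc, the recognition subunits of C1, stayed at or below 0.332 TPM in every library, so the proteases rose in cells that held little transcript of their usual partner. Masp1, a protease of the lectin pathway, was at 12.7, 14.1 and 13.8 TPM in Q111-C and at 7.29, 5.22 and 7.43 TPM in Q111-T. In STHdhQ7 cells it was at 3.39, 7.02 and 7.5 TPM and at 7.27, 4.02 and 8.39 TPM after treatment, and its responses differed between lines by -1.26 (SE 0.259, edgeR adjusted p = 0.0146), where 1.2% of all genes tested passed in that direction. This call was lost with limma at each of the 3 pseudocounts (limma adjusted p = 0.186 to 0.244). Of the alternative pathway genes, Cfd was above 0 in 2 libraries only, and Cfp, encoding properdin, was lower in Q111-T than in Q7-T (log2 fold change -1.38, SE 0.308, edgeR adjusted p = 0.00459), though under 2-fold without Q7-T replicate 2 (-0.99) and with limma at each of the 3 pseudocounts (-0.71 to -0.88). Of the 7 terminal components, which form the membrane pore, 1 was tested and did not pass in any comparison.

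Of the soluble regulators besides Serping1, 3 of 9 were tested. C4bp, encoding C4-binding protein, was at 0.862, 1.32 and 1.44 TPM in Q111-C against at most 0.114 TPM in Q7-C (edgeR adjusted p = 0.00953), and in Q111-T it was at least 7.69-fold above Q7-T, where it was listed at 0. The treated difference of C4bp fell under 2-fold with limma on log2(TPM + 0.5) (0.95), log2(TPM + 1) (0.55) and quantile-normalized TPM (0.76). C4bp reached 0.5 TPM only in STHdhQ111 libraries, so its comparisons between lines are not independent of the filter. Clu, encoding clusterin, was at 0.553, 0.799 and 0.828 TPM in Q111-T and 1.47, 3.04 and 1.11 TPM in Q7-T (log2 fold change -1.93, SE 0.636, edgeR adjusted p = 0.0327). This call rests on Q7-T replicate 2, without which the value was -0.97 (edgeR adjusted p = 0.174). It was also lost without any one of the Q111-T libraries (edgeR adjusted p = 0.0625 to 0.113) and with limma at each of the 3 pseudocounts (limma adjusted p = 0.0649 to 0.0673). Of the membrane regulators besides Cd55, 4 of 6 were tested and 1 passed. Susd4 was at 0.594, 0.561 and 0.531 TPM in Q7-C and at 5.28, 5.01 and 4.84 TPM in Q111-C (log2 fold change 2.81, SE 0.341, edgeR adjusted p = 0.000109).

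Of the receptors, 3 of 9 were tested. Itgb2 was lower in Q111-C (0.269, 0.292 and 0.285 TPM) than in Q7-C (1.66, 1.98 and 2.26 TPM), and the treated groups overlapped, at 4.71, 3.88 and 5.35 TPM in Q111-T and 5.87, 2.42 and 5.55 TPM in Q7-T. The difference of its log2 responses was 2.75 (SE 0.303, edgeR adjusted p = 0.000481). Cd93 was at 0.0773, 0.245 and 0.116 TPM in Q7-C and at 3.12, 2.97 and 4.36 TPM in Q111-T, and Q111-C lay between them at 0.423, 0.464 and 0.882 TPM. Q7-T, at 0.594, 0.224 and 0.611 TPM, overlapped Q7-C in its replicate 2, and its call against Q7-C was lost without Q7-C replicate 1 or 3 or Q7-T replicate 1 or 3 (edgeR adjusted p = 0.0561 to 0.105) and with limma at each of the 3 pseudocounts (limma adjusted p = 0.191 to 0.413). The anaphylatoxin receptor genes C3ar1 and C5ar1 did not exceed 0.205 TPM in any library.

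Some of the 29 listed genes that were in the table but below the filter were above 0 only in the libraries with the highest hepatocyte sums. In Q7-C replicate 3, 9 of them were above 0 while at 0 in the 10 libraries whose sums were lower, and 7 of these were also above 0 in Q111-T replicate 2. C8a, for one, was at 0.126 and 0.337 TPM in these libraries, and C6 at 0.0776 and 0.266 TPM. Hepatocytes are known to make all members but Cd55 as secreted proteins. Q111-T replicate 2 held the least C3, C4b, C2, Cfb, C1ra and C1s1 of its group and the most Serping1. Q7-C replicate 3 held the most C3 and C4b and the least C2 and Cfb of its group, and for C1ra, C1s1 and Serping1 it lay between the other 2 libraries.

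The genes whose pattern over the 12 libraries was closest to that of a member were found by Pearson's r of log2(TPM + 0.5), as a description over libraries that share their groups. For C1ra they were Gbp7, Irf1 and Nlrc5 (r = 0.996 each), for C1s1 Cxcl9 and Nos2 (r = 0.998 each) and Fas (r = 0.997), and for C3 Parp14, Oasl2 and Parp9 (r = 0.991 to 0.996). Many of these are known as interferon-induced genes. For C4b they were Gm5970, H2-Q5 and Ifit1bl2 (r = 0.988 to 0.989), for C2 Aire, Gm44013 and Ifi206 (r = 0.977 to 0.982) and for Cfb Gm19684, Gm5970 and Crem (r = 0.965 to 0.968). Serping1 lay closest to Tubb3, Sfrp1 and Prdx6 (r = 0.964 to 0.985), all higher in STHdhQ7 cells, and Cd55 to Ddit4l, Gm3164 and Fah (r = 0.984 to 0.994), all higher in STHdhQ111 cells. Among the members themselves C3 and C1ra were closest (r = 0.98), and Serping1 and Cd55 were the farthest apart (r = -0.26).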

How the data were processed

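RNA-seq of 12 mouse libraries was analysed. According to the methods, stranded poly(A) libraries were sequenced as paired ends. The authors trimmed reads with Cutadapt, aligned them with HISAT2 (GRCm38) and used StringTie and Ballgown for assembly and quantification. In 1 table the authors deposited TPM values, scaled by them for length and library total, and estimated counts given as whole numbers without normalization. All columns were mapped to a sample, and every row names a gene.

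The filter kept genes with 0.5 TPM or more in 3 or more libraries. Counts entered edgeR 4.0.16 (R 4.3.3) with TMM scaling, a mean per group over all 12 libraries and the quasi-likelihood F test, with Benjamini-Hochberg adjustment over all 16127 genes. Standard errors and 95% intervals were derived from the F statistic, its p and its degrees of freedom. Calls needed an adjusted p under 0.05 and a 2-fold change. Bounds were computed against 12 estimated counts per library, covering counting error only: without molecular identifiers reads are not independent molecules. That 1 read pair stands for about 4 estimated counts is inferred from the values and not stated by the authors, so counts divided by 4 were an alternative. TPM ratios were compared by two-sided exact permutation tests, in which 3 against 3 cannot give less than 0.1. The procedure was tested on simulated data. The chi-square per degree of freedom between replicates was at least 19.63, so no library appeared more than once within its group. Libraries of different groups were not compared in this way.

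Named were all members, list genes that passed in any comparison or define a step of the pathway, near-copies, overlapping genes, and the 3 genes closest to each member. 1 list gene that passed and 1 motif searched are not reported here. The members and lists were chosen with earlier results of these data known. Alternatives were DESeq2 1.42.0, other scaling, filters, limma 3.58.1 on log2(TPM + 0.5), log2(TPM + 0.1) and log2(TPM + 1), fits of 2 groups only, a replicate block, leaving out libraries and adding near-copies. Plots used Python 3.11.15 and matplotlib 3.10.9, and sequences came from RefSeq and GENCODE M21.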

Additional observations from a re-analysis of the deposited data

Results flagged for a closer look

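The responses of STHdhQ7 and STHdhQ111 cells to IFNγ/LPS were compared by the interaction term in edgeR with Benjamini-Hochberg adjustment. It passed both thresholds for 3 of 8 members and 2 of 17 other complement genes tested. Of all genes tested, 3.52% passed upward and 1.2% downward. The call was lost in 6 of 25 alternatives for C1s1, 10 of 25 for C4b and 15 of 25 for Cfb. That of Masp1 was lost with limma at each of the 3 pseudocounts. As STHdhQ111 response minus STHdhQ7 response on the log2 scale, the difference was 1.94 for C1s1 (edgeR adjusted p = 0.0151), 1.85 for C4b (edgeR adjusted p = 0.0338), 1.85 for Cfb (edgeR adjusted p = 0.0499), 2.75 for Itgb2 (edgeR adjusted p = 0.000481) and -1.26 for Masp1 (edgeR adjusted p = 0.0146). C1s1 and Cfb started from overlapping levels in both lines and ended with all 3 Q111-T libraries above all 3 Q7-T libraries. Itgb2 started lower in all 3 Q111-C libraries and ended with overlapping treated groups. Masp1 started higher in all 3 Q111-C libraries and likewise ended with overlapping treated groups. With 3 libraries per group no single library was tested as standing apart from its group.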

How the results depend on the processing

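Over all alternatives, 1002 values of the members were computed, of which 896 kept their direction and side of the thresholds, 52 no longer passed, 28 newly passed and 26 changed sign. C3, C4b, C1ra, C1s1 and Serping1 kept their calls in both treatment comparisons under every alternative run, as did C3 and Serping1 between the nontreated lines and C3, C4b, Cfb, C1s1 and Serping1 between the treated lines.

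Leaving out 1 library at a time, the number of members past the thresholds ranged from 0 to 4 for the interaction, where 3 passed in all 12 libraries. It was 1 with limma on log2(TPM + 0.1), namely C2, which is none of these 3, and 0 without Q7-C replicate 3 and Q111-T replicate 2 together. Of the 17 further complement genes, between 2 and 4 passed the interaction when 1 library was left out, 4 with DESeq2, 4 with quantile-normalized TPM, 4 without the 3 libraries low in long transcripts and 1 with limma on log2(TPM + 0.1), against 2. In Q7-T vs. Q7-C 2 passed, not 4, with limma at each of the 3 pseudocounts, and in Q111-T vs. Q7-T 5, not 9, with limma on log2(TPM + 1). The causes were not tested. In limma the scale itself moved the median of all genes by 0.27 in Q111-C vs. Q7-C and 0.34 in Q111-T vs. Q7-T.

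The values that changed sign had not passed the thresholds in edgeR with all libraries. The interaction value of C3 was 0.09, 0.48 and 0.15 with limma on log2(TPM + 0.5), log2(TPM + 1) and quantile-normalized TPM. That of C1ra was 0.03, 0.00, 0.07 and 0.17 with limma at pseudocounts 0.5, 0.1 and 1 and after quantile normalization, and -0.27 to 0.01 with 1 library left out. That of Serping1 was 0.20 with limma at 0.1, 0.15 with the replicate block, 0.11 without the 3 libraries low in long transcripts, and -0.50 to 0.79 with 1 library left out. That of Cd55 was 1.24, 0.45, 1.31 and 1.01 at 0.5, 0.1 and 1 and after quantile normalization, and the third of these passed (limma adjusted p = 0.0207). With 1 library left out it was -7.90 to -5.23, and the fit without Q7-T replicate 3 passed in this negative direction (edgeR adjusted p = 0.0198). The nontreated line difference of C1s1 was 0.04, 0.06 and 0.03 with limma at 0.5, 0.1 and 1 and -0.54 to 0.06 with 1 library left out. That of C4b was -0.89 with C4a added, and the Q7-T vs. Q7-C value of C2 ranged from -0.31 to 1.29 with 1 library left out.

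Replicate numbers did not pair the samples: deviations of same-numbered libraries correlated between -0.582 and 0.45, with 5 of 12 pairs over 0.1. With the replicate block, 3 members (not 4) passed between the nontreated lines, 7 (as without it) between the treated lines, 6 (not 5) with treatment of STHdhQ7 cells, 7 (as without it) with treatment of STHdhQ111 cells and 2 (not 3) in the interaction. DESeq2 gave Cd55 no adjusted p. The fits without the libraries of the highest hepatocyte sums and without those low in long transcripts, the summed near-copies, the counts without C2 or Cd55 and the ratios and bounds with 1 library left out were chosen after seeing the data. Depth limits C2 and Cd55, whose low groups held few or no reads.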
